A study of Mus musculus with 58 samples.

Results

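The genes described here are 10 members of the p38 mitogen-activated protein kinase (MAPK) pathway: the p38 substrates Mapkapk2, Rps6ka4, Rps6ka5, Mknk1, Mknk2, Atf2 and Ddit3, and the MAPK phosphatases Dusp1, Dusp8 and Dusp16. They were chosen by gene name, and 10 of 10 were among the 9636 genes of the deposited count table. Somatosensory cortex of C57BL/6J mice aged 2 to 4 months was profiled by bulk RNA-seq of poly(A) RNA about 1 month after the last of 5 closed head injuries given on successive days (5xCHI), or after as many sham procedures. The p38 inhibitor SB239063 (SB, 20 mg/kg) or saline vehicle was injected into the peritoneum 30 min after each procedure. The 58 libraries comprised 19 from 5xCHI SB mice (11 female, 8 male), 20 from 5xCHI vehicle mice (12 female, 8 male), 5 from sham SB mice (3 female, 2 male) and 14 from sham vehicle mice (9 female, 5 male). Each sex came in 4 labelled cohorts, F1 to F4 and M1 to M4, and no cohort held both sexes. Sham SB libraries were present in 4 of the 8 cohorts (F1, F2, M1 and M2). Chronic times of about 18 and 34 days are stated for the study, but the labels do not say which animal was taken when.

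p38 is a stress-activated kinase that is switched on by upstream MAPK kinases and that passes its signal on by phosphorylating other kinases and transcription factors. Its output is therefore read in protein phosphorylation, while the transcripts measured here set how much of each substrate or phosphatase can be made. MAPK phosphatases remove the activating phosphates from p38, JNK and ERK, and some of them are themselves induced by MAPK signalling, which closes a feedback loop. In brain, p38 is studied in glial inflammation and in the stress responses of neurons.

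Totals were 28316280 to 49158277 counts per library and the smallest count of any gene in any library was 101. Of 12 excitatory cortical neuron markers 12 were in the table (highest mean, Camk2a at 3626 CPM, counts scaled to a common library size), and of 8 leukocyte markers 0 were. The lowest mean count of a gene in the table was 270, so absence from it does not show that an RNA was absent. In whole cortex, fewer cells of a type and less RNA per cell cannot be told apart. Of the 58 libraries 4 stood apart on 1 of the first 4 principal components: female 5xCHI SB replicate 8, female sham vehicle replicates 1 and 7 and male sham vehicle replicate 2. No member was called with or without them in any comparison of injury or treatment. Groups were compared with edgeR's quasi-likelihood test over 9636 genes in 1 fit with terms for the 8 groups of sex, injury and treatment and for cohort. A gene was called when its Benjamini-Hochberg adjusted p was under 0.05. Levels below are CPM with TMM scaling for library composition, and fold changes are log2 values ± SE. Numbers of mice below count libraries, as the labels do not tie each replicate to a mouse.

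Per kilobase of transcript, Dusp8 was the most abundant of the 10 in sham vehicle cortex at 36.4 ± 3.14 CPM per kb (SD, n = 14). Atf2 followed at 15.7 ± 2.15 and Dusp1 at 14.7 ± 5.90 CPM per kb, which overlapped within their SDs. Ddit3 (11.1 ± 2.12), Mapkapk2 (10.1 ± 1.14) and Mknk2 (9.96 ± 1.37 CPM per kb) lay near the median of 10.03 CPM per kb over 9631 table genes, and neighbours in that order did not differ beyond their SDs. Rps6ka4 stood at 8.01 ± 1.12 and Mknk1 at 6.51 ± 0.665 CPM per kb, also overlapping within their SDs. Dusp16 (2.30 ± 0.397) and Rps6ka5 (2.25 ± 0.313 CPM per kb) were the lowest, at the 4.7th and 4.3rd percentiles of the table, and did not differ beyond their SDs. The 3 phosphatases thus spanned most of the range on this length-adjusted scale, while Rps6ka4 and Rps6ka5 both lay below the median of the table.

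Over all 58 libraries, Dusp1 ranged from 12.9 to 79.0 CPM, 6.12-fold, which was the widest range of the 10. Dusp16 followed at 3.10-fold (8.22 to 25.5 CPM). The other members varied by 1.57-fold (Dusp8) to 2.33-fold (Rps6ka5). After the group and cohort terms, the residual SD of Dusp1 was 0.56 log2 units, at the 99.8th percentile of all genes. That of Dusp8 was 0.11, at the 9.28th percentile, against a median of 0.16 over all genes.

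**Figure D1:**
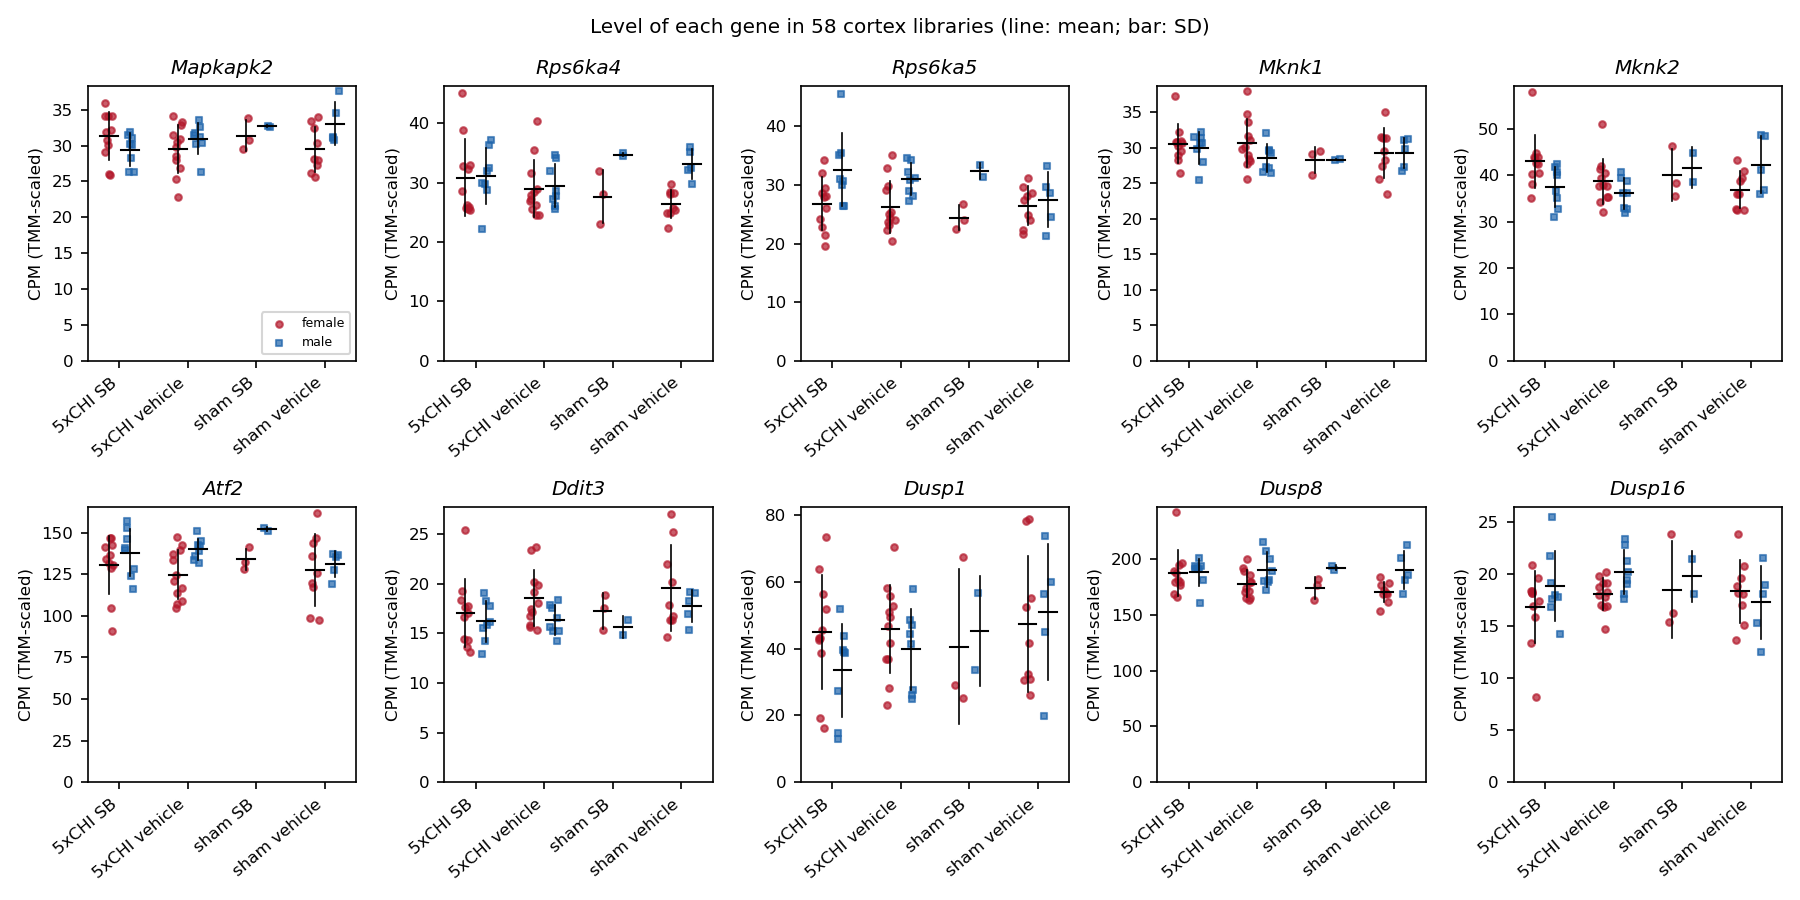
Level of each of the 10 genes (y axis, TMM-scaled CPM, starting at 0) in every library, by condition (x axis) and sex (red circles, female; blue squares, male), with mean (line) and SD (bar) for each sex. The conditions overlap in each of the 10 panels, and the points of Dusp1 spread from 12.9 to 79.0 CPM.

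The first comparison asked whether repeated injury altered these transcripts a month later in mice given vehicle. The edgeR quasi-likelihood test called 0 of the 10 genes, and 0% of all 9636 genes were called. An unadjusted p under 0.05 was reached by 0 of 10 members and by 169 genes of the table. DESeq2 and limma voom also called 0 genes. Of the members 5 were higher and 5 lower, with a median log2 fold change of -0.005, against -0.001 over all genes (5xCHI vehicle over sham vehicle). The widest 95% interval of a member, that of Dusp1, reached a 1.46-fold decrease.

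The kinases that p38 activates directly differed little between injured and sham mice given vehicle. Mapkapk2 encodes MK2, a kinase that stabilises AU-rich cytokine mRNAs through its own substrates. It averaged 30.1 ± 2.97 CPM in 5xCHI vehicle mice (SD, n = 20) and 30.8 ± 3.45 CPM in sham vehicle mice (n = 14), a log2 fold change of -0.05 ± 0.05. The nuclear kinases MSK2 (Rps6ka4) and MSK1 (Rps6ka5), which phosphorylate CREB and histone H3, gave -0.03 ± 0.07 and 0.08 ± 0.08. The kinases MNK1 (Mknk1) and MNK2 (Mknk2), which phosphorylate the translation factor eIF4E, gave 0.02 ± 0.05 and -0.08 ± 0.06. For these 5 kinases the 95% intervals stayed between 0.871-fold and 1.18-fold.

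Of the transcription factors, Atf2, a CREB-family activator phosphorylated by p38 and JNK, gave 0.03 ± 0.06, and -0.04 without the 4 libraries that stood apart. Ddit3 encodes CHOP, a factor induced by endoplasmic reticulum stress and phosphorylated by p38. It ranged from 14.3 to 23.7 CPM (median 17.3) in 5xCHI vehicle mice and from 14.6 to 27.0 CPM (median 18.0) in sham vehicle mice, and the ranges overlapped almost entirely. Its log2 fold change was -0.10 ± 0.07 (unadjusted p = 0.167, adjusted p = 1 by edgeR), but 0.02 by limma voom and -0.02 without the 4 libraries that stood apart.

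Of the phosphatases, Dusp1, an immediate early gene whose nuclear product dephosphorylates p38 and JNK, spread most. It ranged from 23.1 to 70.3 CPM (median 45.7) in 5xCHI vehicle mice and from 19.8 to 79.0 CPM (median 48.7) in sham vehicle mice. Its log2 fold change was -0.17 ± 0.19, and within cohorts it was lower in 5 of 8 and higher in 3 (differences -0.62 to 0.36). Dusp8, which acts on JNK and p38 and is prominent in brain, gave 0.03 ± 0.04, with a 95% interval of 0.968-fold to 1.08-fold. Dusp16, which binds JNK and p38, gave 0.09 ± 0.08.

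The second comparison asked whether SB given around the injuries altered the same transcripts in injured mice. Again 0 of 10 members were called by edgeR, against 0% of all genes, although 680 genes (0 of them members) had an unadjusted p under 0.05. DESeq2 called 0 genes and limma voom called 1, which was not a member. Of the members 7 were higher and 3 lower under SB, with a median log2 fold change of 0.02, against 0.00 over all genes.

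Mknk2 had the smallest p of the 10 in this comparison. It ranged from 31.0 to 57.9 CPM (median 40.6) in 5xCHI SB mice and from 31.9 to 51.0 CPM (median 37.7) in 5xCHI vehicle mice. The 2 groups overlapped over nearly their whole range, with the highest value in female 5xCHI SB replicate 10. The log2 fold change was 0.11 ± 0.06 (unadjusted p = 0.062, adjusted p = 0.714 by edgeR), and it was positive in 6 of 8 cohorts. The other kinases gave 0.00 ± 0.05 for Mapkapk2, 0.08 ± 0.06 for Rps6ka4, 0.04 ± 0.07 for Rps6ka5 and 0.04 ± 0.04 for Mknk1. Atf2 and Ddit3 gave 0.01 ± 0.05 and -0.06 ± 0.06.

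The phosphatase transcripts did not pass the test either. Dusp1 ranged from 12.9 to 73.4 CPM (median 42.7) in 5xCHI SB mice, against 23.1 to 70.3 CPM (median 45.7) in 5xCHI vehicle mice. Of the 19 SB libraries 4 lay below and 1 above the vehicle range, and the log2 fold change was -0.11 ± 0.17. Dusp16 ranged from 8.22 to 25.5 CPM (median 18.0) in 5xCHI SB mice and from 14.7 to 23.4 CPM (median 18.9) in 5xCHI vehicle mice. Its log2 fold change was -0.11 ± 0.07 (unadjusted p = 0.128), higher in 4 and lower in 4 of 8 cohorts. Female 5xCHI SB replicate 8, the lowest library and 1 of the 4 that stood apart, was the 1 5xCHI SB library of cohort F4, and without it the log2 fold change was -0.06 ± 0.06. Dusp8 gave 0.03 ± 0.04.

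**Figure D2:**
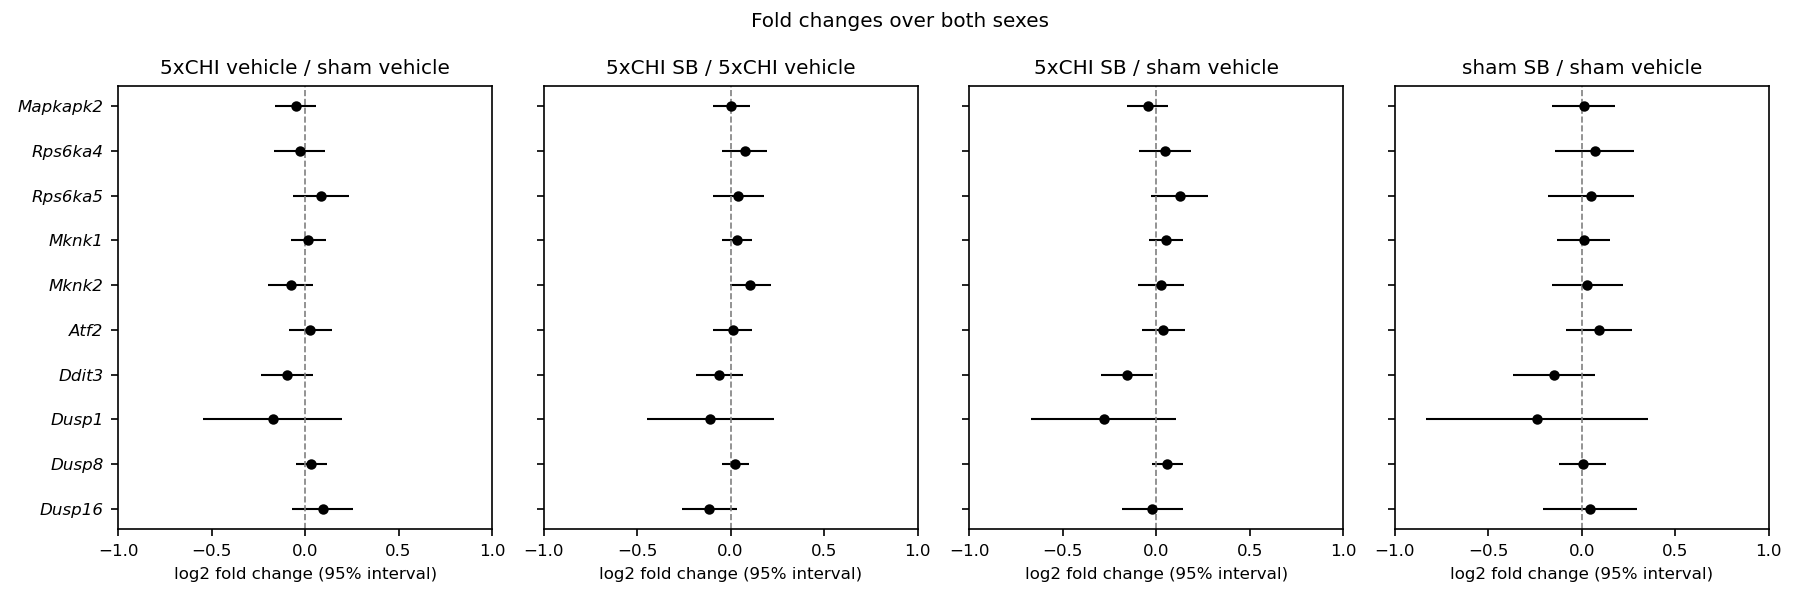
Log2 fold changes (x axis) of the 10 genes (rows) with 95% intervals in 4 comparisons over both sexes. Of the 40 intervals, that of Ddit3 in 5xCHI SB over sham vehicle excludes 0, and those of Dusp1 are the widest in each panel.

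Injured mice given SB were also set against sham mice given vehicle. Here 0 of 10 members and 0% of all genes were called by edgeR, 1211 genes having an unadjusted p under 0.05. Ddit3 ranged from 12.9 to 25.4 CPM (median 16.7) in 5xCHI SB mice and from 14.6 to 27.0 CPM (median 18.0) in sham vehicle mice. It was the 1 member with an unadjusted p under 0.05, at -0.16 ± 0.07 (p = 0.029, adjusted p = 0.366), and was lower in 5 of 8 cohorts. The same sham vehicle libraries enter the injury comparison, and the same 5xCHI SB libraries the SB comparison, so these values are not independent of those above. Dusp1 gave -0.28 ± 0.19 and Rps6ka5 0.13 ± 0.08, and the other 7 members lay between -0.05 and 0.06.

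In sham mice the inhibitor was tested with 5 libraries, so its intervals were wider. By edgeR, 0 of 10 members were called, against 0% of all genes, with 676 genes at an unadjusted p under 0.05. Dusp1 was 67.5, 25.2 and 29.2 CPM in the 3 female and 56.8 and 33.6 CPM in the 2 male sham SB mice, against 19.8 to 79.0 CPM (median 48.7) in sham vehicle mice. All 5 lay inside the sham vehicle range, and the log2 fold change was -0.24 ± 0.30. That direction did not hold within cohorts, where the difference was -0.07 in F1 and -0.08 in M2 but 0.36 in F2 and 0.76 in M1, with 1 or 2 libraries on each side. Ddit3 was 18.9, 17.6 and 15.3 CPM in the females and 14.9 and 16.4 CPM in the males given SB, against 14.6 to 27.0 CPM in sham vehicle mice (-0.15 ± 0.11). The other 8 members gave log2 fold changes between 0.01 and 0.09.

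The interaction, which asks whether the SB effect differed between injured and sham mice, called 0 of 10 members and 0% of all genes by edgeR (133 genes at an unadjusted p under 0.05). Member estimates ran from -0.16 ± 0.14 for Dusp16 to 0.13 ± 0.33 for Dusp1.

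Within each sex, 0 of 10 members were called by edgeR for injury in females (0% of all genes, 303 at an unadjusted p under 0.05) or in males (0% of all genes, 342 at an unadjusted p under 0.05). The same held for SB in injured females (0% of all genes, 695 at an unadjusted p under 0.05) and in injured males (0% of all genes, 181 at an unadjusted p under 0.05). Mknk2 had an unadjusted p under 0.05 in 2 of these 4 comparisons. In males it was 31.9 to 40.7 CPM (median 36.1) in 8 5xCHI vehicle mice and 35.9 to 48.7 CPM (median 41.2) in 5 sham vehicle mice, which overlap. The log2 fold change was -0.23 ± 0.10 (p = 0.0237, adjusted p = 0.846), it lay between -0.30 and -0.18 when each library was left out in turn, and within cohorts it was -0.01 in M1 and between -0.31 and -0.18 in the other 3. In injured females it was 35.1 to 57.9 CPM (median 42.6) in 11 SB mice and 32.1 to 51.0 CPM (median 37.8) in 12 vehicle mice, at 0.15 ± 0.07 (p = 0.0419, adjusted p = 0.693). Within the 4 female cohorts the SB difference was 0.04 to 0.25.

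The difference of the injury effect between the sexes was tested directly. The edgeR test of male minus female injury effects called 0 of 10 members and 0% of all genes, 591 genes having an unadjusted p under 0.05. limma voom called 8 genes, which did not include a member. Mknk2 (-0.30 ± 0.12, p = 0.0188) and Rps6ka4 (-0.33 ± 0.14, p = 0.0202) were the 2 members under 0.05, both with an adjusted p of 0.786. Rps6ka4 averaged 29.0 ± 4.77 CPM in 12 female 5xCHI vehicle mice against 26.4 ± 2.34 CPM in 9 female sham vehicle mice. In males it averaged 29.5 ± 3.61 CPM in 8 5xCHI vehicle mice against 33.1 ± 2.50 CPM in 5 sham vehicle mice. Within cohorts its injury difference ran from -0.02 to 0.25 in females and from -0.40 to 0.08 in males. The SB effect in injured mice, male minus female, called 0 of 10 members and 0% of all genes (88 genes at an unadjusted p under 0.05), with member estimates from -0.21 ± 0.34 (Dusp1) to 0.09 ± 0.13 (Ddit3).

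Other genes of the pathway gave the same count of 0 called in the injury and SB comparisons by edgeR. Of 25 further p38 effectors 19 were measured, and in injured mice given SB their median log2 fold change was 0.03 (12 higher, 7 lower). Mapt, which encodes the p38 substrate tau, had an unadjusted p of 0.0177 at -0.07 ± 0.03, and the transcription factor gene Mef2d had 0.0402 at 0.09 ± 0.04. Of 14 further MAPK phosphatase genes 9 were measured (median -0.04 under SB in injured mice), with Ptpn5, the neuronal phosphatase STEP, at 0.11 ± 0.04 (unadjusted p = 0.0213). Of 18 genes of the p38 cascade 13 were measured (median 0.02 for injury and 0.02 for SB in injured mice), and of 11 ERK and JNK kinases 11 (median 0.02 and 0.01).

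Cohort, in contrast, separated several members among the females. Across F1 to F4, edgeR called 5 of 10 members, and 50% of all 9636 genes were called, so the share of members was that of the table. The 5 were Ddit3 (adjusted p = 0.00205), Mknk1 (0.013), Dusp1 (0.0158), Rps6ka4 (0.0225) and Atf2 (0.0489). limma voom called these and Rps6ka5 and Dusp16, 7 of 10, against 71.9% of all genes by that method. Across M1 to M4, 0 of 10 members were called by edgeR (against 3.83% of all genes), and 0 members had an unadjusted p under 0.05, whereas limma voom called 3 (Rps6ka4, Mknk2 and Dusp8), against 31.1% of all genes by that method. Whether cohort effects differed between the sexes was not tested.

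Each female cohort was then set against the mean of the other 3, a contrast added after the data had been seen. In F1, 3 members were called, against 39.8% of all genes. Dusp1 averaged 36.1 ± 10.7 CPM there (SD, n = 10), against 59.3 ± 16.9 in F2 (n = 6), 40.2 ± 12.4 in F3 (n = 14) and 62.8 ± 15.6 in F4 (n = 5), a log2 difference of -0.54 ± 0.21 for F1 (adjusted p = 0.0339 by edgeR). Atf2 was higher in F1 by 0.16 ± 0.06 and Ddit3 lower, at -0.22 ± 0.08. By mean level, F1 and F3 were the 2 female cohorts of low Dusp1 and F2 and F4 those of high Dusp1.

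In F4, 2 members were called, against 28.9% of all genes. Atf2 averaged 112 ± 13.2 CPM there, against 136 ± 4.82 in F1, 125 ± 18.6 in F2 and 129 ± 19.5 in F3 (-0.22 ± 0.08, adjusted p = 0.0393 by edgeR). Ddit3 averaged 21.8 ± 2.92 CPM in F4, against 16.6 ± 1.16 in F1, 20.6 ± 3.87 in F2 and 17.1 ± 3.25 in F3 (0.24 ± 0.09, adjusted p = 0.045). In F3, 3 members were called, against 14.4% of all genes: Rps6ka4 (0.23 ± 0.07) and Mknk1 (0.16 ± 0.05) were higher and Ddit3 (-0.21 ± 0.07) lower. In F2, 0 members were called by edgeR, against 5.87% of all genes.

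The cohort calls were not equally firm. When each of the 58 libraries was left out in turn, Ddit3, Dusp1 and Mknk1 were called in 58 of 58 fits, Rps6ka4 in 56 (adjusted p = 0.053 without female 5xCHI SB replicate 10 and 0.0585 without female 5xCHI vehicle replicate 3) and Atf2 in 19 (0.0165 to 0.239). The slope of log2 CPM, centred for each gene, on log2 transcript length was computed for each library and averaged -0.06 ± 0.04 in F4 and -0.04 ± 0.11 in F2, against 0.03 ± 0.02 in F1 and 0.02 ± 0.06 in F3 (SD). With that slope as a covariate the adjusted p was 0.175 for Ddit3, 0.278 for Atf2 and 0.0614 for Dusp1, while Mknk1 (0.0158) and Rps6ka4 (0.0147) stayed called.

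**Figure D3:**
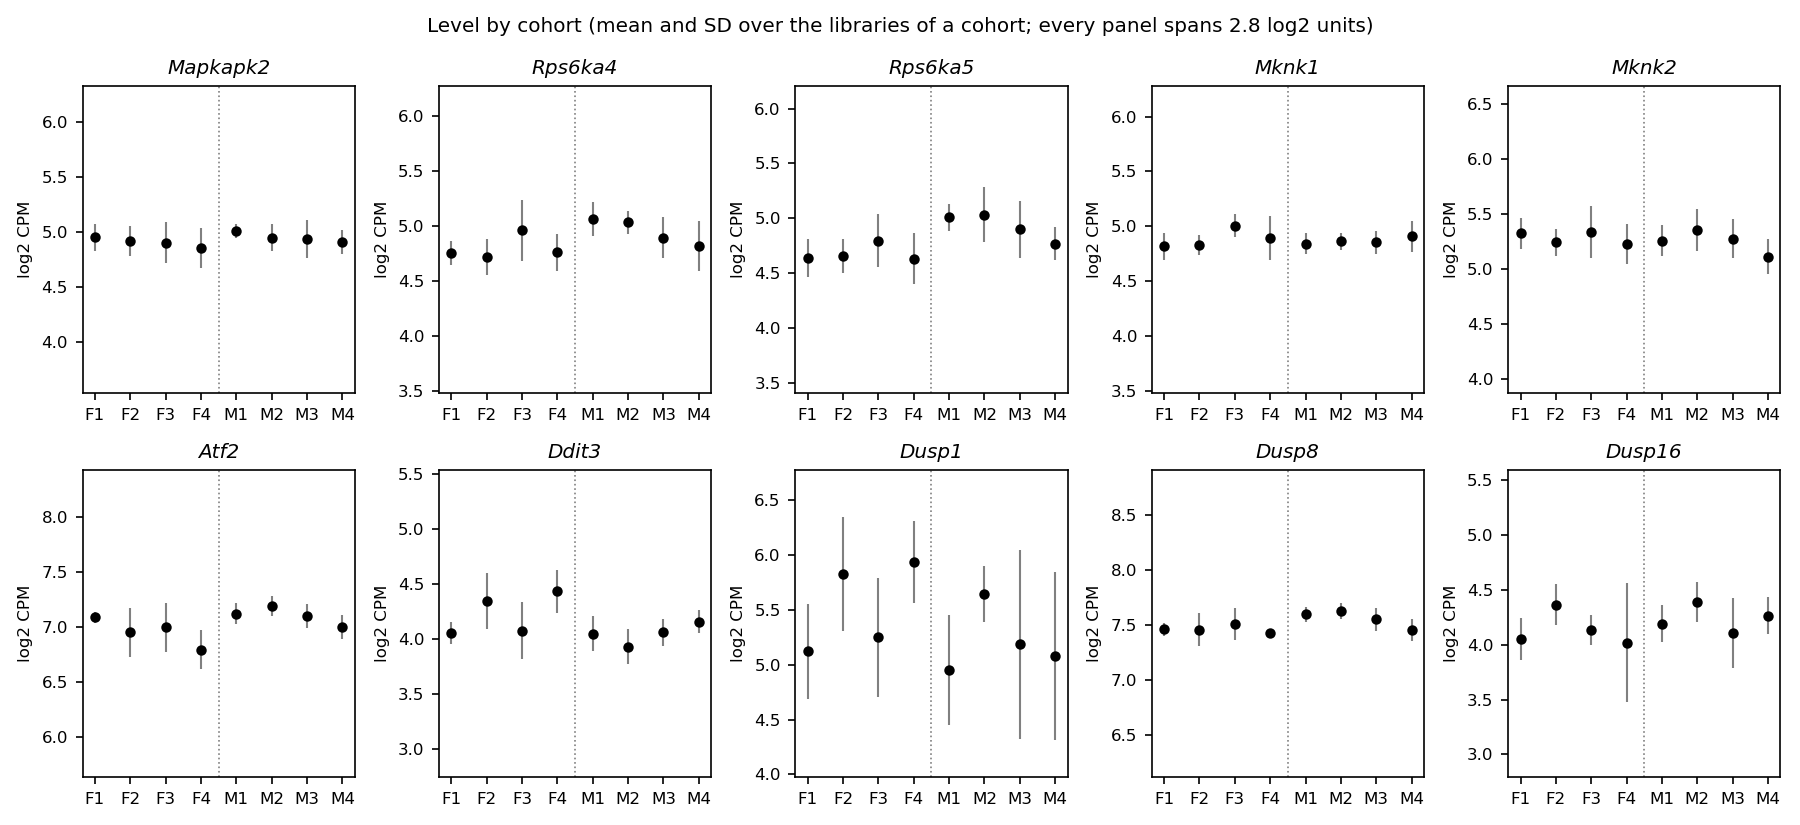
Mean log2 CPM (y axis, 2.8 log2 units in every panel) with SD for each of the 10 genes in the 4 female (F1 to F4) and 4 male (M1 to M4) cohorts (x axis), over all conditions. Dusp1 is low in F1 and F3 and high in F2 and F4, and Atf2 and Ddit3 move in opposite directions in F4.

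The share of variance of log2 CPM that fell to condition, after sex and cohort, includes condition effects that differ between the sexes. It was largest for Mknk2 at 21.3%, the 98.9th percentile of all genes, against a median of 7.36%. For injury, Mknk2 gave 0.07 ± 0.07 in females and -0.23 ± 0.10 in males, and -0.08 ± 0.06 over both sexes. Cohort took 5.21% of the variance of Mapkapk2, at the 3.49th percentile, and 31.6% of that of Ddit3, against a median of 22.9%. Sex took 22.1% of the variance of Rps6ka5, against a median of 1.97%, but no cohort held both sexes, so sex and cohort cannot be told apart. The residual held 53.9% (Ddit3) to 80.9% (Mapkapk2), against a median of 63.95% over all genes. Most of the variation thus lay outside the group and cohort terms, for the members as for the median gene. The residual holds the spread between libraries of 1 cohort and condition together with condition differences that vary between cohorts.

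How the members varied together beyond the group and cohort terms was described by Pearson's r of their residual log2 CPM over the 58 libraries. Points share the library and with it depth and RNA quality, so r is given as a description. The highest value among the 45 pairs was between Rps6ka4 and Mknk2 (r = 0.765). Atf2 and Rps6ka5 also varied together (r = 0.719). Atf2 ran opposite to Mknk2 (r = -0.594), Ddit3 (r = -0.578) and Rps6ka4 (r = -0.491). Paralogs did not pair: for Rps6ka4 with Rps6ka5 r was -0.321 and for Mknk1 with Mknk2 0.191.

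**Figure D4:**
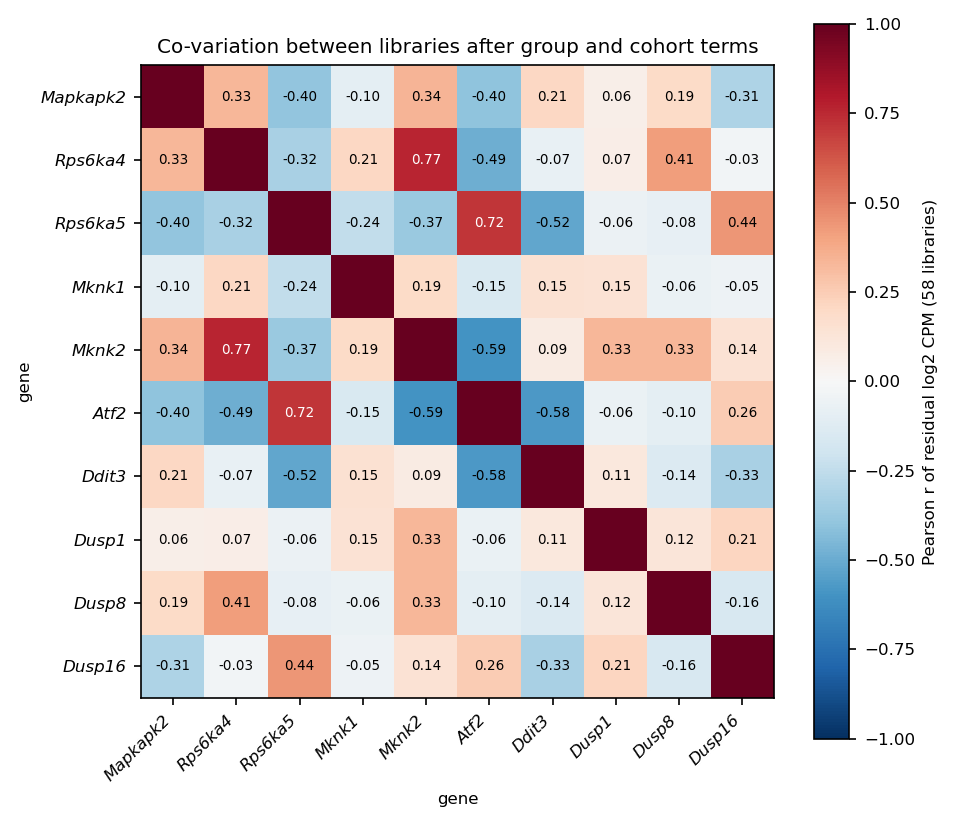
Pearson's r (colour and printed value) between the residual log2 CPM of each pair of the 10 genes over 58 libraries, after group and cohort terms. Rps6ka4 with Mknk2 and Atf2 with Rps6ka5 are the 2 pairs above 0.7, and the highest value of Dusp1 is 0.331, with Mknk2.

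Dusp1 varied with the activity-regulated immediate early genes. The 3 genes most like it among all other genes of the table were Arc (r = 0.943), Nr4a1 (r = 0.938) and Junb (r = 0.926), 3 genes that neurons transcribe within minutes of firing. Over the mean of 17 measured immediate early genes r was 0.893 (0.865 in females, 0.924 in males, 0.891 without the 4 libraries that stood apart). Of the members, Mknk2 had the highest r with Dusp1 at 0.331, which was 0.144 in females and 0.641 in males, and Rps6ka4 had -0.221 in females and 0.571 in males. Mknk2 also had r of 0.477 with the immediate early list (0.345 in females, 0.700 in males). By single gene, 9 of 17 had r over 0.5 and 4 over 0.8, while Homer1 had -0.072. For 13 measured glucocorticoid-induced genes, another known input to Dusp1, r was 0.197 for the list mean, and the 1 gene over 0.5 was the clock gene Per1 (0.628), which is also among the 17. Among the other phosphatases, Dusp5 (0.810) and Dusp6 (0.739), both feedback regulators of ERK, were the 2 of 9 over 0.5.

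The immediate early genes gave no call for injury or SB either (0 of 17, edgeR). Their median log2 fold change for injury was -0.17, beside -0.17 for Dusp1. Of the 17, 15 were lower and 3 had an unadjusted p under 0.05, against 1.75% of all genes. Genes of a list share libraries and can vary together, so the counts in this paragraph are not sums of independent results. For SB in injured mice the median of the 17 was -0.01 (8 higher, 9 lower, 0 at an unadjusted p under 0.05), beside -0.11 for Dusp1. For SB, 16 of the 17 were higher in injured females (median 0.10) and 14 lower in injured males (median -0.13), with 0 called in each. Among the genes most like Dusp1, Arc gave -0.29 ± 0.27 for injury and -0.15 ± 0.25 for SB in injured mice. Nr4a1 gave -0.16 ± 0.19 and -0.12 ± 0.17, and Junb -0.18 ± 0.23 and -0.02 ± 0.20. By sex, 17 of 17 were lower for injury in males (median -0.36) and 11 of 17 higher in females (median 0.05), with 0 called in each. An unadjusted p under 0.05 was reached by 5 in males (3.55% of all genes) and 0 in females (3.14%). In the edgeR test of male minus female injury effects 0 of the 17 were called. There 16 were lower and 5 had an unadjusted p under 0.05, against 6.13% of all genes. The 13 glucocorticoid-induced genes had a median of -0.13 for injury (13 lower, 0 called, 5 at an unadjusted p under 0.05, against 1.75% of all genes, the smallest being 0.00128 for Nfkbia) and -0.01 for SB in injured mice. The comparisons of injury, and of SB in injured mice, share the 5xCHI vehicle libraries.

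The 250 bases upstream of the RefSeq start of Dusp1 and Dusp8 are shown because, among the members, these 2 promoters hold a full cyclic AMP response element, the CREB and ATF2 site TGACGTCA, which is in capitals. They are given 5′ to 3′ on the gene's strand from RefSeq, build GRCm38.p6, for Dusp1 at chr17:26508473-26508722 (minus strand) and for Dusp8 at chr7:142095285-142095534 (minus strand).
Dusp1: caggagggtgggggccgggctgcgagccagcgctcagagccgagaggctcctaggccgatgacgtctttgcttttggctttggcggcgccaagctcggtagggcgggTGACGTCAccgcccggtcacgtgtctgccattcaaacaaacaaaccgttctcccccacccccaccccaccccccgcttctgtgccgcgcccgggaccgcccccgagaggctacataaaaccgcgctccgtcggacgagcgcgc
Dusp8: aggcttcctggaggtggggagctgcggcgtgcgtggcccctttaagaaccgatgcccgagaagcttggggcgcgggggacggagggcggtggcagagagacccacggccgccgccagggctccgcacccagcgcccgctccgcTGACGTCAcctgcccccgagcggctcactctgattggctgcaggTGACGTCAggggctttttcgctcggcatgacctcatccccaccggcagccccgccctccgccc
In Dusp1 the element lies 143 to 136 bases upstream, and in Dusp8 at 107 to 100 and at 63 to 56 bases upstream. The palindrome reads alike on both strands and contains the shorter element TGACG once on each, and Dusp1 has a further TGACG at 191 to 187 bases.
Promoters were found for 10 of 10 members (11 promoters). TGACGTCA was present in 1.55% of all 32851 promoters of that table and in 2.67% of the 10227 promoters of genes in the count table. The shorter TGACG was searched on both strands like the others. It was found in 17.77% of all promoters, in 27.22% of those of genes in the count table and in those of Dusp1, Dusp8, Dusp16, Rps6ka4 and Rps6ka5. The AP-1 element TGANTCA (6.75% of all promoters, 3.96% of those of table genes) was in the promoters of Ddit3 and Rps6ka4. The composite CHOP element TGATGNAA (3.45% and 1.84%) was in none of the 11. The letter pattern of the CArG box (1.47% and 1.10%), the site of serum response factor, was matched in the promoter of Mknk2 at 32 to 23 bases upstream. The matched bases, CCTATAAAGG, contain the TATA box sequence TATAAA, and whether serum response factor acts there was not tested. Dusp8, with 2 full elements, had r of 0.122 with Dusp1 and of 0.219 with the immediate early list.

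Beyond the group and cohort terms, Dusp16 followed the oligodendrocytes' myelin genes. The 3 genes most like it were Samd5 (r = 0.750), Plekhh1 (r = 0.749) and Gjc3 (r = 0.746), the last of which encodes an oligodendrocyte connexin. With each of the 13 measured myelin markers r lay between 0.616 (Aspa) and 0.707 (Mal), and with their mean it was 0.705 (0.647 in females, 0.824 in males, 0.646 without the 4 libraries that stood apart). The mean log2 CPM of the 13 ranged from 6.32 to 7.94 in 5xCHI SB, 7.27 to 8.45 in 5xCHI vehicle, 7.42 to 7.88 in sham SB and 6.44 to 8.98 in sham vehicle libraries, and 0 markers were at 0. In injured mice given SB, 13 of 13 were lower than with vehicle (median log2 fold change -0.35), beside -0.11 ± 0.07 for Dusp16. By edgeR 0 of the 13 were called, and 13 had an unadjusted p under 0.05, against 7.06% of all genes. The markers share libraries and can vary together, so 13 of 13 is not 13 independent results. In 5xCHI SB over sham vehicle the 13 were also lower (median -0.28), beside -0.02 ± 0.08 for Dusp16. In sham mice given SB they were lower (median -0.14), beside 0.04 ± 0.13 for Dusp16. For injury with vehicle they were higher (median 0.08), beside 0.09 ± 0.08. The part of the myelin transcripts in the values of Dusp16 was not tested.

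Dusp8 went with excitatory neuron markers instead. The most alike were Pdzd4 (r = 0.682), Agap2 (r = 0.681) and Ppp1r9b (r = 0.663), which encodes the dendritic spine protein spinophilin. With the mean of 12 excitatory neuron markers r was 0.604, and with that of the myelin markers -0.423. With the mean of 9 inhibitory neuron markers r was 0.208 (0.077 in females, 0.594 in males). Among themselves the 3 phosphatases had r from -0.159 to 0.212 over all libraries, and the lowest pair, Dusp8 with Dusp16, had -0.009 in females and -0.517 in males.

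**Figure D5:**
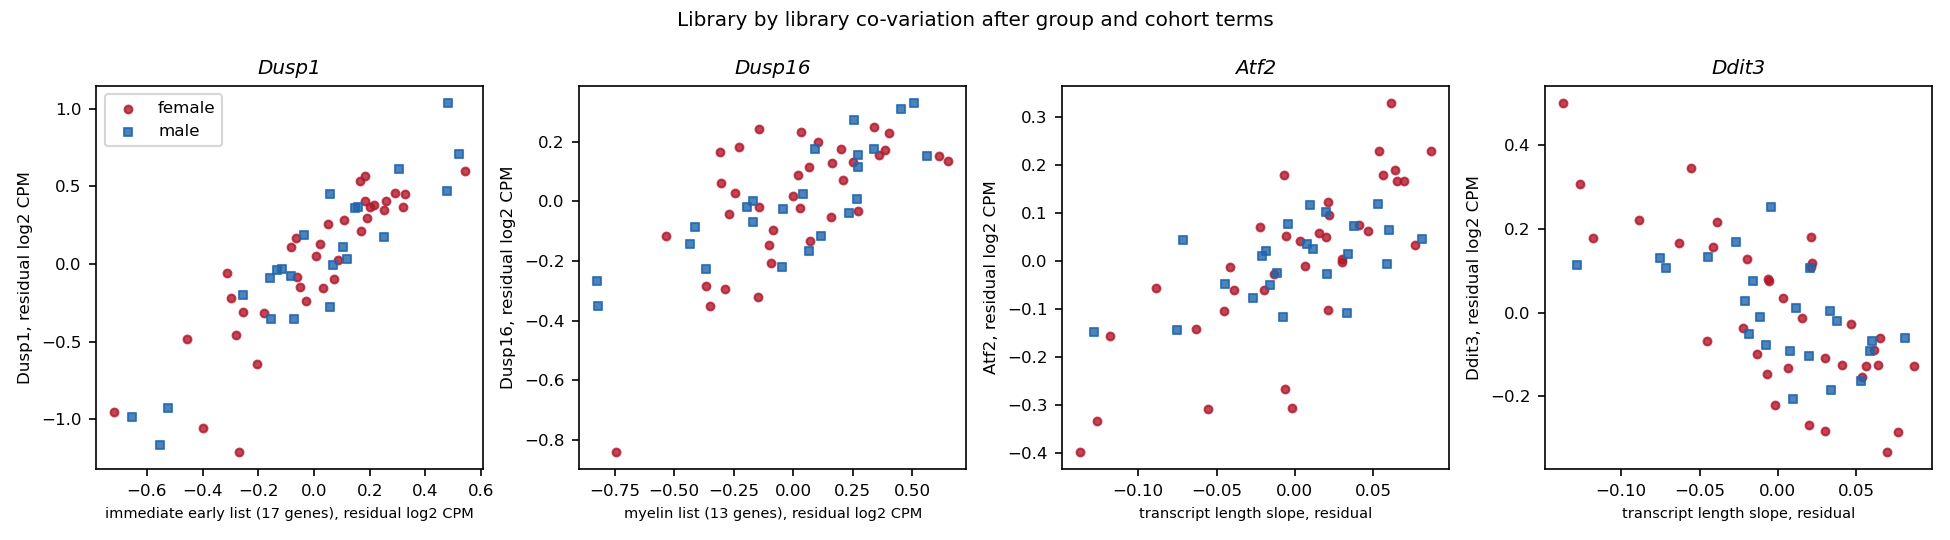
Residual log2 CPM of Dusp1 against the mean of 17 immediate early genes, of Dusp16 against the mean of 13 myelin genes, and of Atf2 and Ddit3 against the slope of log2 CPM on log2 transcript length (x axes), 1 point for each of 58 libraries (red circles, female; blue squares, male). Dusp1, Dusp16 and Atf2 increase along their axes (r = 0.893, 0.705 and 0.711) and Ddit3 decreases (r = -0.715).

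Atf2 and Ddit3 moved with the length slope in opposite directions (r = 0.711 and -0.715). Among the r of all genes with the slope these lay at percentiles 93.4 and 5.61, so many other genes had values as far out. Merged exons are 8.19 kb long for Atf2 and 1.71 kb for Ddit3. Atf2 was most like Vcpip1 (r = 0.950), Clcn3 (r = 0.946) and Pafah1b1 (r = 0.940), and Ddit3 most like Iscu (r = 0.762), Mrpl24 (r = 0.755) and Park7 (r = 0.748). Iscu and Mrpl24 encode mitochondrial proteins. The 19 measured genes of the endoplasmic reticulum and integrated stress responses had 0 calls and a median log2 fold change of 0.00 for injury and -0.03 for SB in injured mice. With them Ddit3 had a median r of 0.044, with 9 of 19 below 0. The highest was Atf4 (0.706), which encodes its known upstream activator, and the lowest were Eif2ak3 (-0.595), which encodes the kinase PERK upstream in the same arm, and Sel1l (-0.591). Rps6ka5, with merged exons of 11.93 kb, had r of 0.507 with the slope, at percentile 82.7 of all genes. It was most like Crebrf (r = 0.785), the hypoxia factor gene Hif1a (r = 0.763) and Zfp644 (r = 0.752).

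Rps6ka4 was most like Scap, the escort of the sterol-regulated factors SREBP (r = 0.846), Bag6 (r = 0.830) and Map1s (r = 0.822), and Mknk2 most like the class II histone deacetylase gene Hdac5 (r = 0.862), Atp13a2 (r = 0.851) and Dda1 (r = 0.842). Their r with the length slope was -0.179 and -0.334, while it was -0.397 for Mapkapk2, 0.137 for Mknk1 and 0.310 for Dusp16 (0.121 in females, 0.727 in males). Mapkapk2 and Mknk1 had weaker partners. For Mapkapk2 they were Eif3d (r = 0.639), Gnai2 (r = 0.629) and P4hb (r = 0.627), and for Mknk1 Ift140 (r = 0.600), Rgp1 (r = 0.569) and the pericyte receptor gene Pdgfrb (r = 0.535).

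Exons of some members overlap those of other genes in GENCODE vM21, and none of the sources used here states whether counting used strand. The overlap with an antisense gene covers 5.78% of the exon bases of Mknk1 (Gm29434), 3.97% of those of Ddit3 (Mars), 1.36% of those of Dusp8 (Gm32786) and 0.33% of those of Dusp1 (Ergic1). A same-strand transcript, CAAA01066123.1, covers 18.2% of the exon bases of Rps6ka4. Another same-strand entry of the name Ddit3 covers 6.13% of the exon bases of Ddit3. How reads of shared bases were counted is not stated, so levels of these genes could be raised or lowered by the overlaps, which was not tested.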

How the data were processed

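The authors deposited raw counts per gene for 58 libraries. The build (GRCm39, mm39) and the tools STAR, featureCounts and DESeq2 are named per the submitters' processing notes, and the sources used here give neither versions nor the strand setting. Per the labels' protocols, RNA was poly(A) selected and libraries were directional. Counts were tested in edgeR 4.0.16 (R 4.3.3) with TMM scaling and the robust quasi-likelihood fit: 8 groups of sex, injury and treatment and cohort within sex as fixed effects (14 coefficients, 44 residual degrees of freedom), Benjamini-Hochberg over 9636 genes, threshold 0.05. Comparisons over both sexes are means of the female and male contrasts. log2 CPM used a prior count of 2. The members and gene lists were chosen with earlier results of these data known. Named were 10 members, the 3 genes most like each, and up to 3 genes per list of smallest p. Transcript lengths came from GENCODE vM21, for 9631 genes (99.9%). The labels number replicates without tying each to a mouse, so p-values measure the spread between libraries. Alternatives were DESeq2 1.42.0 (size factors and Wald test), total count scaling, limma voom 3.58.1, a 10 CPM filter, no cohort term, a replicate block, separate sexes, a length slope covariate, leaving out each library and, added after seeing the data, leaving out the 4 libraries that stood apart and comparing each cohort with the other 3. The fit was tested on counts simulated with changes for SB in injured mice. These had no cohort or sex effects and no co-variation between genes, so that test does not cover them. The proteins' sequences are not used here.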

Additional observations from a re-analysis of the deposited data

Results flagged for a closer look

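Within each sex by injury by treatment group of 4 to 10 mice, the highest and lowest library of each member were compared with the rest of the group. Of 40 sets looked at, 2 held a library far from the others, and chance flags about 1 set in 20. Mapkapk2 was 26.4 CPM in male 5xCHI vehicle replicate 7 (cohort M3), below the 30.3 to 33.6 CPM of the other 7 mice of its group. Dusp8 was 161 CPM in male 5xCHI SB replicate 6 (cohort M4), below the 181 to 201 CPM of the other 7.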

How the results depend on the processing

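No member was called for injury, SB, their interaction or a sex difference under any alternative or with any 1 library left out (lowest adjusted p 0.0875 and 0.226). Signs were less stable: of 1100 estimates under other settings 82 changed sign, 16 of them by over 1 SE, and of 6380 with a library left out 215 changed sign, 0 by over 1 SE. The causes of these sign changes were not tested. The 16, as log2 fold changes, were as follows. Without the 4 libraries that stood apart, Atf2 for injury was -0.041 and Ddit3 for injury in females 0.061. Under limma voom, Ddit3 was 0.015 for injury, 0.065 for injury in females and -0.069 for the interaction, Mknk1 was 0.00 for 5xCHI SB over sham vehicle, and the sex difference of injury was 0.021 for Mapkapk2 and 0.058 for Dusp8. With the length slope as covariate, Atf2 was -0.05 for 5xCHI SB over sham vehicle, -0.003 for SB in sham mice, -0.005 for injury in males and -0.026 for SB in injured females, and Ddit3 was 0.001 for injury in males.

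With a replicate block, Dusp1 was 0.054 for injury, 0.092 for injury in males and 0.075 for the sex difference of injury. Replicate numbers did not pair the mice (52 same-numbered pairs, r from -0.575 to 0.567, 16 over 0.1), and the block moved the genes called between cohorts to 2602 in females and 90 in males, with 0 members called.

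limma voom called 1 gene for SB in injured mice and 8 for the sex difference of injury. Genes called across male cohorts, 369 as reported, were 919 with the length slope, 1258 without the 4 libraries, 3000 under limma voom and 746 with the sexes fitted separately. With 1 library left out they ranged from 28 (without male sham vehicle replicate 1) to 769 (without female sham vehicle replicate 7). In females the range was 4283 to 5375. Dusp16, not called across female cohorts (adjusted p = 0.0723), was called with total count scaling (0.0462), the length slope (0.0219) and limma voom (0.0336). limma voom, which called 71.9% of all genes there, also called Rps6ka5 (0.0121) and, across male cohorts, Rps6ka4 (0.0133), Mknk2 (0.00989) and Dusp8 (0.0272). Atf2 across female cohorts was called under 1 of 8 other settings. DESeq2 gave no cohort test, as it was not run for cohorts.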
